A study of Bos taurus with 30 samples.

Results

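Skin of tick-resistant cattle was compared with skin of tick-susceptible cattle 48 h after tick infestation, on 5 resistant and 5 susceptible arrays of the 30 arrays in the series. The arrays were chosen by their labels, which give phenotype and time, and all probe sets other than controls were examined. Resistant and susceptible animals alike were F2 offspring of a cross of Gyr (Bos indicus) with Holstein (Bos taurus) cattle, and all 10 animals had been infested. The resistant arrays came from animals 1, 2, 3, 5 and 6 and the susceptible arrays from animals 7, 9, 10, 11 and 13, with 1 array per animal. The same model held 6 resistant and 6 susceptible arrays at 24 h after infestation, and 5 resistant and 3 susceptible arrays from before infestation (0 h). No uninfested skin at 48 h, age, sex, tick species or score of resistance was used, because none was given in the sources used here. The F2 animals of a phenotype can differ at many loci, so phenotype and family background cannot be told apart.

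Ticks cut into the dermis and feed from the wound. The skin answers with clotting, with complement (plasma proteins that coat foreign surfaces and draw in leukocytes), and with macrophages, mast cells and granulocytes. Phagocytes carry an NADPH oxidase that makes superoxide, and macrophages are a main source of the C1q chains that open the classical complement pathway. Keratinocytes of the basal layer anchor the epidermis to the dermis through hemidesmosomes, and those above them are held together by desmosomes. In a biopsy of whole skin, fewer cells of a type and less RNA per cell cannot be told apart.

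The tissue label was borne out by KRT5, a keratin of basal keratinocytes, which lay between 12.15 and 14.82 log2 units over the 10 arrays, and by DCN, decorin of the dermal matrix, which lay between 13.92 and 15.26. The medians of the 48 h arrays ran from 7.21 to 7.39 log2 units. On the first principal component of all 30 arrays, which held 17.7% of the variance, resistant animal 1 was highest at 65.6 and susceptible animal 11 was second of the 48 h arrays at 38.3. These arrays also had the lowest mean of 12 epidermal differentiation genes in their group, at 9.02 in resistant animal 1 and 9.68 in susceptible animal 11, while susceptible animal 10 had the highest mean of the 10 arrays at 11.32. XIST, the transcript of the inactive X chromosome, was above 8 log2 units in 4 of 5 resistant arrays and in 2 of 5 susceptible arrays. By animal number it was 2.0 at 0 h, 11.63 at 24 h and 11.48 at 48 h in resistant animal 3, and 11.82, 4.83 and 4.74 at those times in resistant animal 5, so the 0 h arrays of these animals go against their numbers. Both are resistant, so an exchange of these arrays with each other would leave the group means as they are. It would touch only the fit with the animal as a block. An exchange with any other array could change the 0 h means, and this was not tested. Since XIST was split unequally between the groups, XIST and phenotype cannot be fully told apart. The part of XIST and of the epidermal mean in the results was not tested beyond the values given beside them.

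Of 13809 probe sets tested, 2 passed an adjusted p of 0.05 (0.0145%). CYBA, the membrane subunit p22phox of the phagocyte NADPH oxidase, rose in resistant skin. A probe set with no gene symbol in the annotation, called the unnamed probe set here, fell. A further count shows how broad the smaller differences were: 1391 probe sets (10.1%) had an unadjusted p under 0.05, of which 638 were higher (4.62%) and 753 lower (5.45%) in resistant skin. With every array centred on its own median, that split was 725 higher and 494 lower.

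CYBA measured 11.02, 10.82, 10.68, 11.07 and 10.72 log2 units in resistant animals 1, 2, 3, 5 and 6, against 10.03, 10.08, 9.24, 9.73 and 9.90 in susceptible animals 7, 9, 10, 11 and 13. The lowest resistant array lay above the highest susceptible array. The means were 10.86 ± 0.17 in resistant skin and 9.80 ± 0.34 in susceptible skin (SD, n = 5 each), a difference of 1.07 ± 0.18 (SE) log2 units or 2.10-fold (limma, adjusted p = 0.0304). With XIST as a covariate the difference was 1.12, with an adjusted p of 0.0265. Fitted to the 10 arrays at 48 h alone, the same difference had an adjusted p of 0.245, and without susceptible animal 10 it was 0.93 with an adjusted p of 0.215. Leaving out resistant animal 1, 2, 3 or 5 also put the adjusted p above 0.05, at 0.0849, 0.0971, 0.0528 and 0.0636.

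The unnamed probe set measured 9.67, 9.58, 9.49, 9.64 and 9.64 log2 units in the resistant arrays, in the same order of animals, against 10.35, 10.42, 10.55, 10.19 and 10.27 in the susceptible arrays. The resistant values lay within a narrow band below all susceptible values. The difference was -0.75 ± 0.13 (SE) log2 units (limma, adjusted p = 0.0323). It was -0.70 without susceptible animal 10, with an adjusted p of 0.215, and -0.67 with XIST as a covariate, with an adjusted p of 0.0765. The adjusted p was also above 0.05 without resistant animal 1, 2, 3 or 5 (0.0636 to 0.126), without susceptible animal 7 or 9 (0.0729 and 0.132), in the 10 arrays alone (0.245), with array weights (0.0627), and with the basal keratinocyte mean (0.0758) or the control 3′ to 5′ difference (0.0533) as a covariate.

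**Figure D1:**
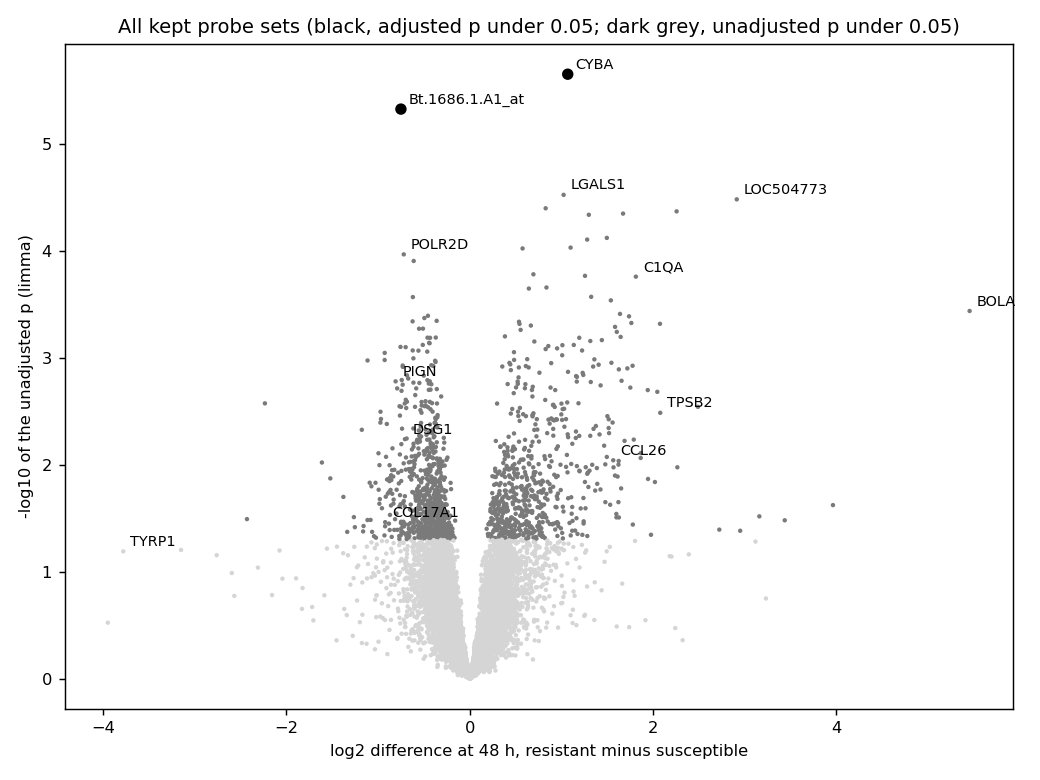
The plot of all kept probe sets sets the log2 difference at 48 h, resistant minus susceptible (x axis), against minus log10 of the unadjusted p of limma (y axis). CYBA and the unnamed probe set are the black points, dark grey points had an unadjusted p under 0.05, and BOLA lies farthest to the right at 5.45.

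Among the 7016 genes with a symbol, each read from its brightest kept probe set, 395 (5.63%) were higher and 353 (5.03%) lower in resistant skin at an unadjusted p under 0.05. In 55 genes (0.784%) every resistant array lay above every susceptible array, and in 36 (0.513%) every resistant array lay below. The median difference of all genes was -0.02 log2 units. These shares are the background for the gene lists that follow: a list is described by how many of its measured genes passed the same unadjusted p in each direction and by its median difference. Only CYBA of the genes in the lists passed the adjusted threshold, genes of a list vary together between arrays, and some genes stand in more than 1 list. The lists were chosen with earlier results of these data known, so their counts are not a test against these shares.

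Next to CYBA, the genes with the smallest p that were higher in resistant skin were LGALS1 and TSPO among named genes. LGALS1 encodes galectin-1, a sugar-binding lectin of fibroblasts and leukocytes. It measured 13.31, 13.89, 14.09, 13.74 and 13.28 log2 units in resistant skin, against 12.76, 12.93, 11.91, 12.98 and 12.61 in susceptible skin. The groups did not overlap, and the difference was 1.02 ± 0.21 (SE; limma, adjusted p = 0.0787). TSPO, a cholesterol-binding protein of the outer mitochondrial membrane that is abundant in macrophages, measured 11.69, 11.57, 11.46, 11.36 and 11.16 in resistant skin, against 10.65, 10.65, 10.38, 10.55 and 10.87 in susceptible skin. The groups were again apart, by 0.83 ± 0.17 (SE; adjusted p = 0.0787).

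LOC504773, a gene without a name in the annotation, averaged 12.61 ± 1.01 in resistant skin and 9.70 ± 1.46 in susceptible skin (SD, n = 5 each). The difference of 2.91 ± 0.59 (SE) log2 units had an adjusted p of 0.0787 (limma). Resistant animal 6, at 10.84, lay among the susceptible arrays, which reached 10.93, while the other resistant arrays lay between 12.81 and 13.33. DSEL, an epimerase that makes dermatan sulfate, lay between 9.11 and 9.88 in resistant skin and between 7.32 and 8.54 in susceptible skin (difference 1.26). PRL, prolactin, lay between 11.24 and 11.86 in resistant skin and between 10.85 and 11.23 in susceptible skin (difference 0.54).

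**Figure D2:**
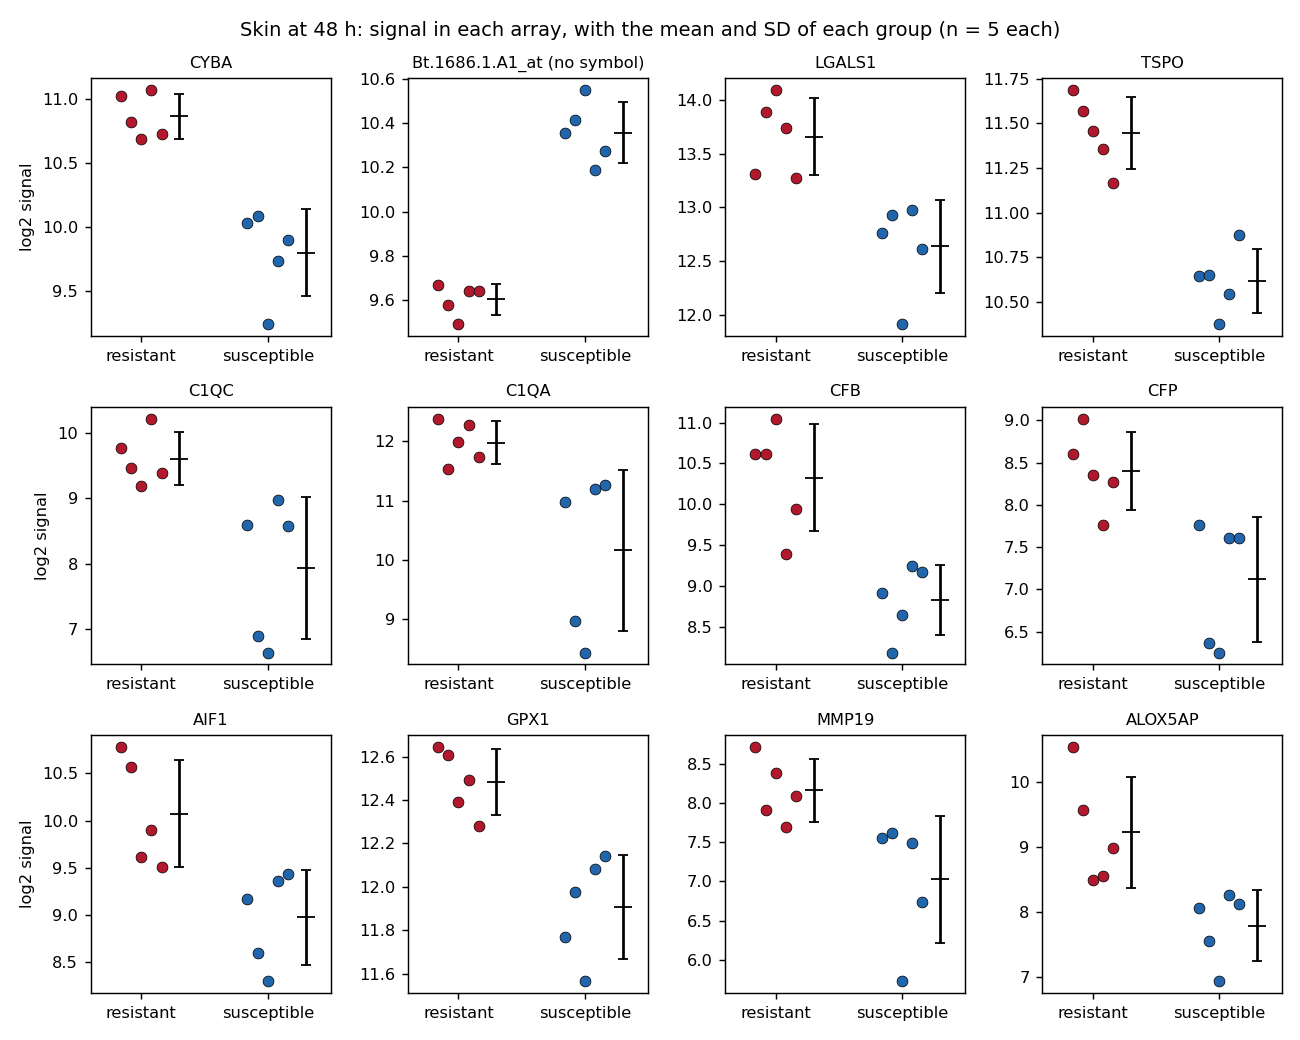
The log2 signal of 12 probe sets is plotted for each array at 48 h (y axes, each on its own scale), resistant left and susceptible right, with the mean and SD of the 5 arrays of a group beside the points. In CYBA, LGALS1, TSPO, C1QC, C1QA, CFB, CFP, AIF1, GPX1, MMP19 and ALOX5AP every resistant array lies above every susceptible array, and in the unnamed probe set, whose panel carries its array identifier, every resistant array lies below.

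The NADPH oxidase and peroxide defence list had 22 of its 29 genes among the kept probe sets. Of these, 6 were higher and 0 lower in resistant skin, with a median difference of 0.22. CYBB, the catalytic partner of CYBA, averaged 8.73 in resistant skin and 8.17 in susceptible skin, and its difference of 0.56 ± 0.30 (SE) did not reach an unadjusted p of 0.05. A second CYBB probe set differed by 1.35 and did. NCF1, the p47phox subunit that activates the enzyme, had a difference of 0.99 and RAC2, the small GTPase of the complex in blood cells, one of 0.70. The groups overlapped in both. Without resistant animal 1 CYBB differed by 0.24 and RAC2 by 0.39, and the count of higher genes was 3.

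GPX1, the cytosolic glutathione peroxidase that removes hydrogen peroxide, measured 12.64, 12.61, 12.39, 12.49 and 12.28 log2 units in resistant skin, against 11.77, 11.98, 11.57, 12.08 and 12.14 in susceptible skin. All resistant arrays were above all susceptible arrays, and the difference was 0.58 ± 0.13 (SE; limma, adjusted p = 0.108). PRDX6, a peroxiredoxin that also reduces phospholipid peroxides, had differences of 0.63 and 0.60 from its brighter probe sets and -0.04 from the dimmest.

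No complement gene passed the adjusted threshold of limma, and the counts are at an unadjusted p under 0.05. In the classical and lectin list 8 of 11 genes were kept, 5 were higher and 0 lower, and the median difference was 1.49. In the list of alternative and terminal components 6 of 9 genes were kept, 2 were higher and 0 lower, with a median of 0.77. At 24 h the medians of these lists were 0.10 and -0.08, and at 0 h they were 0.05 and 0.07. At 48 h the classical and lectin count was 8 without susceptible animal 11 and 4 without susceptible animal 10. It was also 4 with array weights and with the basal keratinocyte mean as a covariate.

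C1QA, C1QB and C1QC encode the 3 chains of C1q, the antibody-binding part of the first complement component. C1QC measured 9.77, 9.46, 9.19, 10.22 and 9.40 log2 units in resistant skin, against 8.60, 6.89, 6.63, 8.98 and 8.57 in susceptible skin. C1QA measured 12.38, 11.53, 11.98, 12.27 and 11.73 in resistant skin, against 10.97, 8.96, 8.44, 11.20 and 11.26 in susceptible skin. In both genes the groups were apart, and susceptible animals 9 and 10 lay well below the other susceptible animals. For C1QC the values of susceptible animals 9 and 10 were below the array medians. The differences were 1.67 ± 0.35 for C1QC (limma, adjusted p = 0.0787), 1.81 ± 0.42 for C1QA (adjusted p = 0.14) and 1.76 ± 0.45 for C1QB (SE; adjusted p = 0.192), where the groups overlapped between 9.69 and 9.80. The 3 genes are neighbours on chromosome 2 of the RefSeq annotation (ARS-UCD2.0). Without susceptible animal 11, adjusted p was 0.0215 for C1QC and 0.0493 for C1QA (limma). Without susceptible animal 10 the differences were 1.35 and 1.38, with adjusted p of 0.424 and 0.565. Without resistant animal 1 adjusted p was 0.246 and 0.295.

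C2, the protease that C1 cleaves, had a difference of 1.32 ± 0.35, and its neighbour on chromosome 23, CFB (factor B, the protease of the alternative pathway), one of 1.5 ± 0.32 (SE). CFB measured 10.62, 10.62, 11.05, 9.39 and 9.94 log2 units in resistant skin, against 8.91, 8.18, 8.65, 9.24 and 9.17 in susceptible skin. CFP, properdin, stabilises the alternative convertase. It measured 8.60, 9.02, 8.35, 7.77 and 8.27 in resistant skin, against 7.76, 6.37, 6.25, 7.61 and 7.61 in susceptible skin. The CFP values of susceptible animals 9 and 10 were below the array medians. The gap between the groups was wide for neither gene, and adjusted p was 0.107 for both (limma). CFP lies on the X chromosome, and with XIST as a covariate its difference of 1.28 became 1.15.

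C3, the central component, averaged 13.45 in resistant skin and 12.62 in susceptible skin, a difference of 0.84 ± 0.43 (SE) that did not reach an unadjusted p of 0.05. A second C3 probe set differed by 1.24 and did. FCN1, a ficolin of the lectin pathway, had a difference of 2.26, but its values spread from 5.51 to 9.31 in resistant skin and from 2.06 to 6.99 in susceptible skin, in large part below the array medians. Among complement regulators and receptors 6 of 13 genes were kept, and 1 was higher: CD55, decay-accelerating factor, with a difference of 0.99 ± 0.39 (SE). It did not pass without resistant animal 1 or susceptible animal 10; the count was 0 without either of them or resistant animal 2, and 2 without resistant animal 3 or 5 or susceptible animal 11.

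Of 27 monocyte and macrophage genes, 17 were kept, and 14 of them were higher and 0 lower in resistant skin. The median difference was 1.06 log2 units at 48 h, against -0.01 at 24 h and 0.02 at 0 h. The mean of the list was 10.12, 9.53, 9.07, 8.93 and 8.92 in resistant animals 1, 2, 3, 5 and 6, against 8.51, 7.95, 7.50, 8.98 and 8.60 in susceptible animals 7, 9, 10, 11 and 13. The groups overlapped only because susceptible animal 11 lay above resistant animals 5 and 6. CD163, MRC1, LYZ and CD74 were among the genes of the list that were not kept.

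AIF1, an actin-binding protein of macrophages, measured 10.78, 10.57, 9.62, 9.90 and 9.51 log2 units in resistant skin, against 9.17, 8.60, 8.30, 9.37 and 9.44 in susceptible skin. The difference was 1.1 ± 0.24 (SE; limma, adjusted p = 0.108). Every resistant array was also above every susceptible array for FCGR1A, the high-affinity receptor for IgG (difference 1.32), for TYROBP, the signalling adaptor DAP12 (1.65), and for FCER1G, the shared Fc receptor gamma chain (1.32). Those 4 were the only genes of the list without overlap.

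The other macrophage genes overlapped by 1 or a few arrays. CD68, a lysosomal membrane glycoprotein, averaged 9.41 ± 0.88 in resistant skin and 8.18 ± 0.61 in susceptible skin (SD, n = 5 each). CSF1R, the receptor for macrophage colony-stimulating factor, lay between 8.51 and 8.74 in resistant skin and between 4.49 and 8.67 in susceptible skin, where animal 10 was lowest. Differences were 1.75 for the scavenger receptor MSR1, 1.36 for the complement receptor VSIG4, 1.05 for the lipopolysaccharide receptor CD14 and 0.89 for the protease CTSS. A second CD14 probe set gave 0.53, and CSF1R differed by 1.42, or by 0.74 without susceptible animal 10. RNASE6, an antimicrobial ribonuclease of myeloid cells, differed by 1.59, and the pattern receptor TLR2 by 0.86 with no overlap.

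The count of macrophage genes that were higher stayed between 11 and 15 of 17 in every alternative run. It was 12 without resistant animal 1, 12 without susceptible animal 10, 12 without resistant animal 1 and susceptible animal 11 together, and 12 with the epidermal mean as a covariate.

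**Figure D3:**
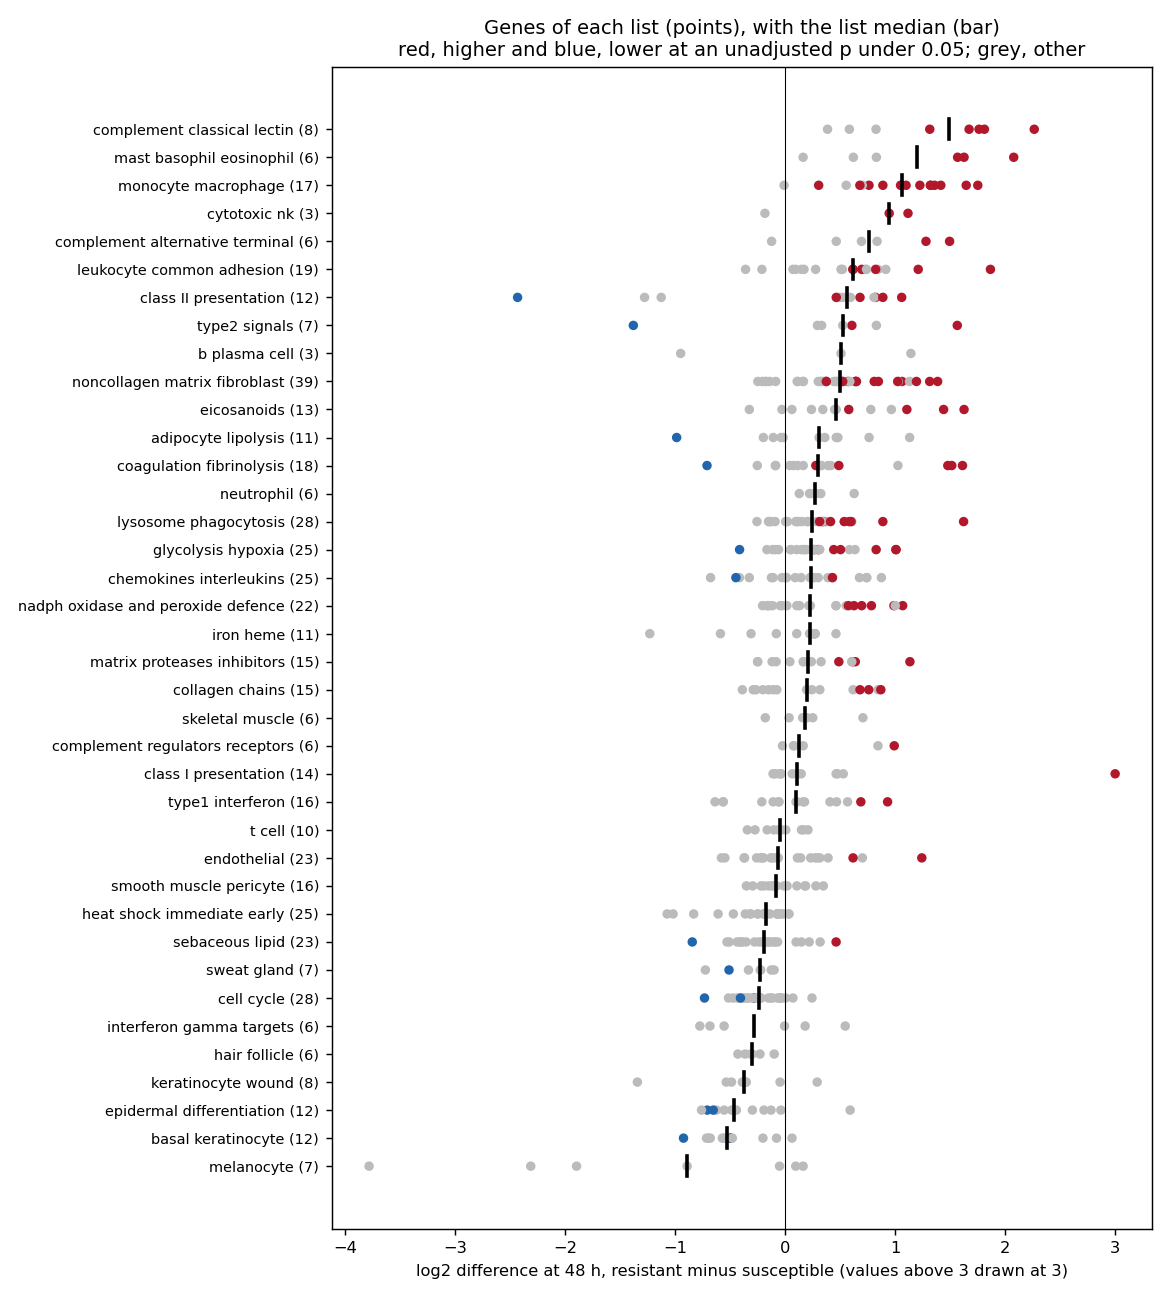
Each point is a gene, placed by its log2 difference at 48 h, resistant minus susceptible (x axis), in the row of its list (y axis, number of kept genes in brackets); the bar is the list median. Complement, mast cell and macrophage lists stand at the top with medians of 1.49, 1.20 and 1.06, and basal keratinocyte and melanocyte lists at the bottom with -0.53 and -0.89.

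Mast cell, basophil and eosinophil genes were thinly covered: 6 of 22 were kept, of which 3 were higher and 0 lower, with a median of 1.20. FCER1A, the IgE-binding chain of the high-affinity IgE receptor, measured 8.22, 8.09, 6.62, 6.61 and 6.41 log2 units in resistant skin, against 5.90, 5.26, 5.13, 5.71 and 6.10 in susceptible skin. All susceptible values lay below all resistant values. The susceptible values and those of resistant animals 3, 5 and 6 lay below the array medians. The difference was 1.57 ± 0.57 (SE; limma, adjusted p = 0.365). TPSB2, a mast cell tryptase, measured 8.64, 7.68, 7.17, 7.49 and 6.58 in resistant skin, against 6.83, 5.81, 2.37, 6.21 and 5.96 in susceptible skin. Its difference of 2.08 ± 0.65 (SE) became 1.31 without susceptible animal 10, whose value was far below the rest. All susceptible values of TPSB2 and those of resistant animals 3 and 6 lay below the array medians. The count of the list was 2 without resistant animal 1, 2 or 6 or susceptible animal 7 or 10. It was 5 without resistant animal 3 and 1 with the basal keratinocyte mean as a covariate. Without resistant animal 1 the list median was 0.73. KIT, the stem cell factor receptor of mast cells and melanocytes, averaged 10.68 in resistant skin and 10.52 in susceptible skin.

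PTI and LOC404103 had differences of 2.08 and 1.60, and in both every resistant array was above every susceptible array. PTI encodes the Kunitz-type trypsin inhibitor aprotinin, which in cattle is stored in mast cells. The probe sets of these genes were designed on the same clone, so their signals cannot be told apart with certainty, and a second LOC404103 probe set differed by 0.34. Without susceptible animal 10 the LOC404103 difference was 1.06. They were singled out after their values were seen.

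Of 26 eicosanoid genes 13 were kept, and 4 were higher and 0 lower in resistant skin (median 0.46). ALOX5AP, the protein that presents arachidonic acid to 5-lipoxygenase, measured 10.54, 9.56, 8.49, 8.54 and 8.98 log2 units in resistant skin, against 8.06, 7.55, 6.93, 8.26 and 8.12 in susceptible skin. The groups were apart, and the difference was 1.44 ± 0.38 (SE; limma, adjusted p = 0.192). PTGIS, which makes prostacyclin, differed by 1.11, and HPGD, which inactivates prostaglandins, by 0.58. Without susceptible animal 10 PTGIS differed by 0.57. ALOX15, a lipoxygenase of eosinophils and macrophages, differed by 1.63, with 10.55, 9.57, 5.34, 6.90 and 8.45 in resistant skin against 6.05, 6.49, 6.16, 7.42 and 6.56 in susceptible skin. Resistant animals 1, 2 and 6 were high, animal 5 lay within the susceptible range and animal 3 below it, and without resistant animal 1 the difference was 1.03. Without resistant animal 1 or 6 the count for the list was 2, and without susceptible animal 10 it was 1.

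Of 24 genes for signals of type 2 immunity 7 were kept, 2 of them higher and 1 lower. Among the 7, 6 were above 0 and the median was 0.52, or 0.28 to 0.78 when 1 array was left out. CCL26, the eosinophil attractant eotaxin-3, measured 14.33, 14.35, 12.40, 13.81 and 13.89 log2 units in resistant skin, against 12.53, 11.72, 10.43, 14.11 and 12.15 in susceptible skin. Susceptible animal 11 lay in the resistant range and resistant animal 3 in the susceptible range, and the difference was 1.57 ± 0.56 (SE; limma, adjusted p = 0.351). IL4R, a receptor chain for interleukins 4 and 13, differed by 0.61. IL33, an alarmin of epithelial and endothelial nuclei, averaged 8.82 in resistant skin and 10.20 in susceptible skin, a difference of -1.38, while its other probe sets gave -0.08 and -0.96. The cytokine genes IL4, IL5 and IL13 were not among the kept genes. The count of higher genes was 1 without resistant animal 1 or susceptible animal 9 or 10, and that of lower genes 0 without resistant animal 3 or 5.

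Antigen presentation by class II molecules had 12 of 24 genes kept, 5 of them higher and 1 lower, with a median of 0.56. BOLA-DRA and BOLA-DRB3, the chains of the bovine DR molecule, differed by 0.68 and 0.82, and the costimulator CD86 by 1.06, all with overlap. BOLA-DQB, the beta chain of the DQ molecule, measured 3.04, 6.07, 5.11, 5.23 and 2.44 log2 units in resistant skin, against 6.27, 6.37, 8.73, 6.54 and 6.13 in susceptible skin. All but 1 of these values were below the array medians. The class II count of higher genes was 3 without resistant animal 1 or 2 or susceptible animal 9. BOLA-DQB, with a difference of -2.43, did not pass without resistant animal 1 or 6 or susceptible animal 10. With XIST as a covariate BOLA-DQB differed by -1.63 and did not pass.

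In the class I list, 14 of 18 genes were kept, and 1 was higher: BOLA, a class I heavy chain. BOLA measured 11.82, 13.11, 12.83, 13.22 and 13.39 log2 units in resistant skin, against 7.31, 6.05, 5.78, 12.85 and 5.10 in susceptible skin. Thus 5 of 5 resistant animals and susceptible animal 11 were high, and the other susceptible animals were low. The difference of 5.45 ± 1.35 (SE; limma, adjusted p = 0.192) was already present before infestation, at 3.73 at 0 h and 3.73 at 24 h. Class I and DQ genes vary in sequence between animals, and a change in transcript level and a mismatch to the probes cannot be told apart here. The rest of the class I list, with the peptide transporter, the immunoproteasome and beta-2-microglobulin, had differences between -0.11 and 0.53. The count was 3 without resistant animal 3 or susceptible animal 11 and 2 without resistant animal 6.

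Interferon genes did not move as a set. In the type I list 16 of 29 genes were kept and 2 were higher: IFI6, by 0.69 with no overlap, and SAMD9, by 0.93. That count was 0 without resistant animal 1 and 1 without resistant animal 2 or susceptible animal 9, 10 or 13. ISG15, a ubiquitin-like modifier, averaged 8.42 in resistant skin and 8.98 in susceptible skin, and MX1, an antiviral GTPase, averaged 7.93 in resistant skin and 8.5 in susceptible skin. Of interferon-gamma targets, 6 of 15 were kept and 0 passed at 48 h (median -0.28). Before infestation 4 of these 6 had passed, against 1.6% of all genes higher and 2.68% lower at that time, with a median of -1.05, among them the guanylate-binding protein GBP5 at -1.47 and the chemokine CXCL10 at -1.77. At 48 h the differences of GBP5 and CXCL10 were -0.77 and -0.55. A second GBP5 probe set, which the count of genes does not use, gave -0.99 at 48 h and passed. Without susceptible animal 11 CXCL10 was -0.29 and the list median -0.06. The SAMD9 difference was 0.60 without resistant animal 1, and that of ISG15 was -0.24 without susceptible animal 7.

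Markers of T cells and neutrophils showed less, and cytotoxic and B cell genes were thinly covered. In the T cell list 10 of 30 genes were kept and 0 passed in either direction; the differences ran from -0.34 to 0.21, and the list mean lay between 7.06 and 8.19 in resistant skin and between 7.39 and 8.08 in susceptible skin. Of 22 neutrophil genes 6 were kept and 0 passed. Of cytotoxic cell genes only 3 of 16 were kept, with a median difference of 0.95. NKG7 and the granzyme GZMB were higher by 0.95 and 1.12, and the other kept gene differed by -0.18. None passed without resistant animal 1 or susceptible animal 10, and 1 passed without resistant animal 2 or 5 or susceptible animal 9. Immunoglobulin mu, IGHM, ranged from 11.02 to 13.66 in resistant skin and from 8.60 to 13.34 in susceptible skin, a difference of 1.14 ± 0.81 (SE). Without susceptible animal 10 IGHM differed by 0.59 and GZMB by 0.71.

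Genes shared by all leukocytes were higher in 6 of 19 kept cases, with a median of 0.62. They included the exchange factor VAV1 (1.87), the actin regulator CORO1A (1.21) and SELPLG, the ligand of P-selectin (0.82). VAV1 differed by 0.95 without susceptible animal 10. The count was 3 without resistant animal 2 and 2 without resistant animal 1, whose list mean of 9.64 was the highest of the 10 arrays. Of 25 kept chemokine, interleukin and receptor genes 1 was higher and 1 lower. The lower one was CXCL14, a chemokine made by keratinocytes, which averaged 13.17 ± 0.21 in resistant skin and 13.61 ± 0.12 in susceptible skin (SD, n = 5 each). The higher gene did not pass without resistant animal 1 or susceptible animal 10, and leaving out other arrays gave up to 4 higher and 2 lower genes.

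Genes of the dermal matrix and fibroblasts were higher in resistant skin in 15 of 39 kept cases and lower in 0, with a median of 0.50. MFAP5, a microfibril glycoprotein, measured 13.17, 12.72, 12.28, 12.12 and 12.49 log2 units in resistant skin, against 12, 10.67, 9.96, 11.66 and 12.53 in susceptible skin, and only susceptible animal 13 lay in the resistant range. The difference was 1.19 ± 0.31 (SE; limma, adjusted p = 0.192). Fibronectin, FN1, differed by 1.31, the collagen-binding proteoglycans FMOD and OGN by 1.06 and 1.39, and S100A4, a calcium-binding protein of mesenchymal cells, by 0.52. Vimentin, VIM, the filament protein of mesenchymal cells, and DCN differed by 0.37 each. Without susceptible animal 10 OGN differed by 0.84 and DCN by 0.20, and the list median was 0.25. The list mean was lowest in susceptible animal 10, at 9.92 against 10.45 to 11.24 in the other susceptible arrays; without that animal the count was 6.

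Of 15 kept collagen chains 3 were higher and 0 lower, with a median of 0.20. COL6A1 differed by 0.87 and COL12A1 by 0.68, with a second probe set of each in the same direction. COL1A1, the main fibrillar chain of dermis, differed by 0.62 ± 0.61 (SE) and did not pass. The count of collagen chains was 0 without resistant animal 2 or susceptible animal 10 and 1 without resistant animal 1 or susceptible animal 9. Without susceptible animal 10 the differences of COL1A1 and COL6A1 were 0.10 and 0.57, and the list median was -0.02.

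Among matrix proteases and their inhibitors 15 of 32 genes were kept, 4 higher and 0 lower. MMP19, a matrix metalloproteinase, measured 8.72, 7.91, 8.39, 7.70 and 8.10 log2 units in resistant skin, against 7.56, 7.62, 5.73, 7.49 and 6.74 in susceptible skin, a difference of 1.13 ± 0.30 (SE; limma, adjusted p = 0.192). In susceptible animals 10 and 13 MMP19 was below the array median. TIMP1, the inhibitor of metalloproteinases, differed by 0.61 and in a second probe set by 0.67. MMP2, gelatinase A, differed by 0.64, or by 0.32 without susceptible animal 10. The count was 2 without resistant animal 1 or susceptible animal 9 or 10.

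Of 18 kept clotting genes 5 were higher and 1 lower, with a median of 0.30 and 14 genes above 0. F13A1, the transglutaminase chain that cross-links fibrin and is made by dermal macrophages, averaged 12.51 in resistant skin and 10.99 in susceptible skin, and its 3 probe sets gave differences of 1.52, 1.69 and 1.78. TFPI, the inhibitor of the tissue factor pathway, measured 9.38, 9.68, 9.03, 7.56 and 8.65 in resistant skin, against 6.22, 5.32, 6.15, 9.48 and 9.06 in susceptible skin. Susceptible animals 11 and 13 were as high as the resistant animals, and susceptible animals 7, 9 and 10 were below the array medians. Coagulation factor F5 differed by 1.48 and was likewise high in susceptible animals 11 and 13, and without susceptible animal 10 its difference was 0.94. The count of higher genes was 3 without resistant animal 2 or susceptible animal 10 and 2 without susceptible animal 9. F3, tissue factor, which starts clotting, averaged 10.02 in resistant skin and 10.73 in susceptible skin, a difference of -0.71 ± 0.22 (SE). With XIST as a covariate the differences were 1.07 for F13A1, 1.09 for TFPI (1.61 without it), 1.34 for F5 and -0.72 for F3.

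Lysosomal and phagocytosis genes were higher in 8 of 28 kept cases and lower in 0 (median 0.25). Leaving out 1 array at a time gave 6 to 11 higher genes in this list. CTSL, cathepsin L, differed by 1.62 and CD63, a lysosomal tetraspanin, by 0.41. Without susceptible animal 11 CTSL differed by 1.18 and did not pass. CTSB, cathepsin B, differed by 0.54 in its brightest probe set, while 4 others gave values between -0.37 and 0.31. Of 25 kept genes of glycolysis and hypoxia 7 were higher and 1 lower (median 0.24). The count of higher genes ran from 5 to 10 when 1 array was left out. GPI, the second enzyme of glycolysis, lay between 12.53 and 12.95 in resistant skin and between 11.46 and 12.47 in susceptible skin. The phosphofructokinase chains PFKP and PFKL differed by 1.01 each, PFKP with no overlap, and GAPDH by 0.44. The lower gene was EGLN3, a prolyl hydroxylase that marks hypoxia-inducible factor for breakdown, at -0.41, which did not pass without resistant animal 1, 2 or 5 or susceptible animal 9 or 10.

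The epidermal array means described above are made of genes of these lists. Of 12 kept basal keratinocyte genes 0 were higher and 3 lower, with a median of -0.53. COL17A1, a collagen of the hemidesmosome, measured 8.89, 10.61, 11.38, 10.95 and 11.79 log2 units in resistant skin, against 11.66, 12.29, 12.35, 10.46 and 11.47 in susceptible skin. Resistant animal 1 and susceptible animal 11 were lowest in their groups. The difference of -0.92 ± 0.42 (SE) became -0.46 without resistant animal 1 and -1.22 without susceptible animal 11. ITGB4, the integrin of the same junction, differed by -0.49 and PERP, a desmosomal membrane protein, by -0.50. The count of lower genes was 0 without resistant animal 1 or 2 or susceptible animal 9 or 10, 6 without resistant animal 3 or 6, 7 without susceptible animal 11 and 2 without resistant animal 1 and susceptible animal 11 together. KRT5 and KRT14, the keratin pair of basal cells, had differences of -0.57 and -0.68 and did not pass. Without resistant animal 1 they were -0.15 and -0.01, PERP was -0.27 and the list median was -0.14, and a second KRT5 probe set gave 0.09 over all arrays.

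In the epidermal differentiation list 12 of 43 genes were kept, and 2 were lower and 0 higher (median -0.46). That median was -0.08 without resistant animal 1 and -0.19 without susceptible animal 10. DSG1, desmoglein 1, the adhesion protein of upper desmosomes, measured 12.06, 12.68, 13.23, 13.07 and 13.47 log2 units in resistant skin, against 13.47, 13.80, 14.27, 12.93 and 13.59 in susceptible skin. Its difference of -0.71 ± 0.24 (SE; limma, adjusted p = 0.311) was -0.50 without resistant animal 1 and -0.67 without resistant animal 1 and susceptible animal 11 together. With the mean of its own list as a covariate, which DSG1 itself enters, the difference was -0.43 with an adjusted p of 0.0347. GRHL1, a transcription factor of desmosomal genes, differed by -0.65, or by -0.42 without resistant animal 1. The count was 1 without resistant animal 1 or 5 or susceptible animal 9, 10 or 13.

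**Figure D4:**
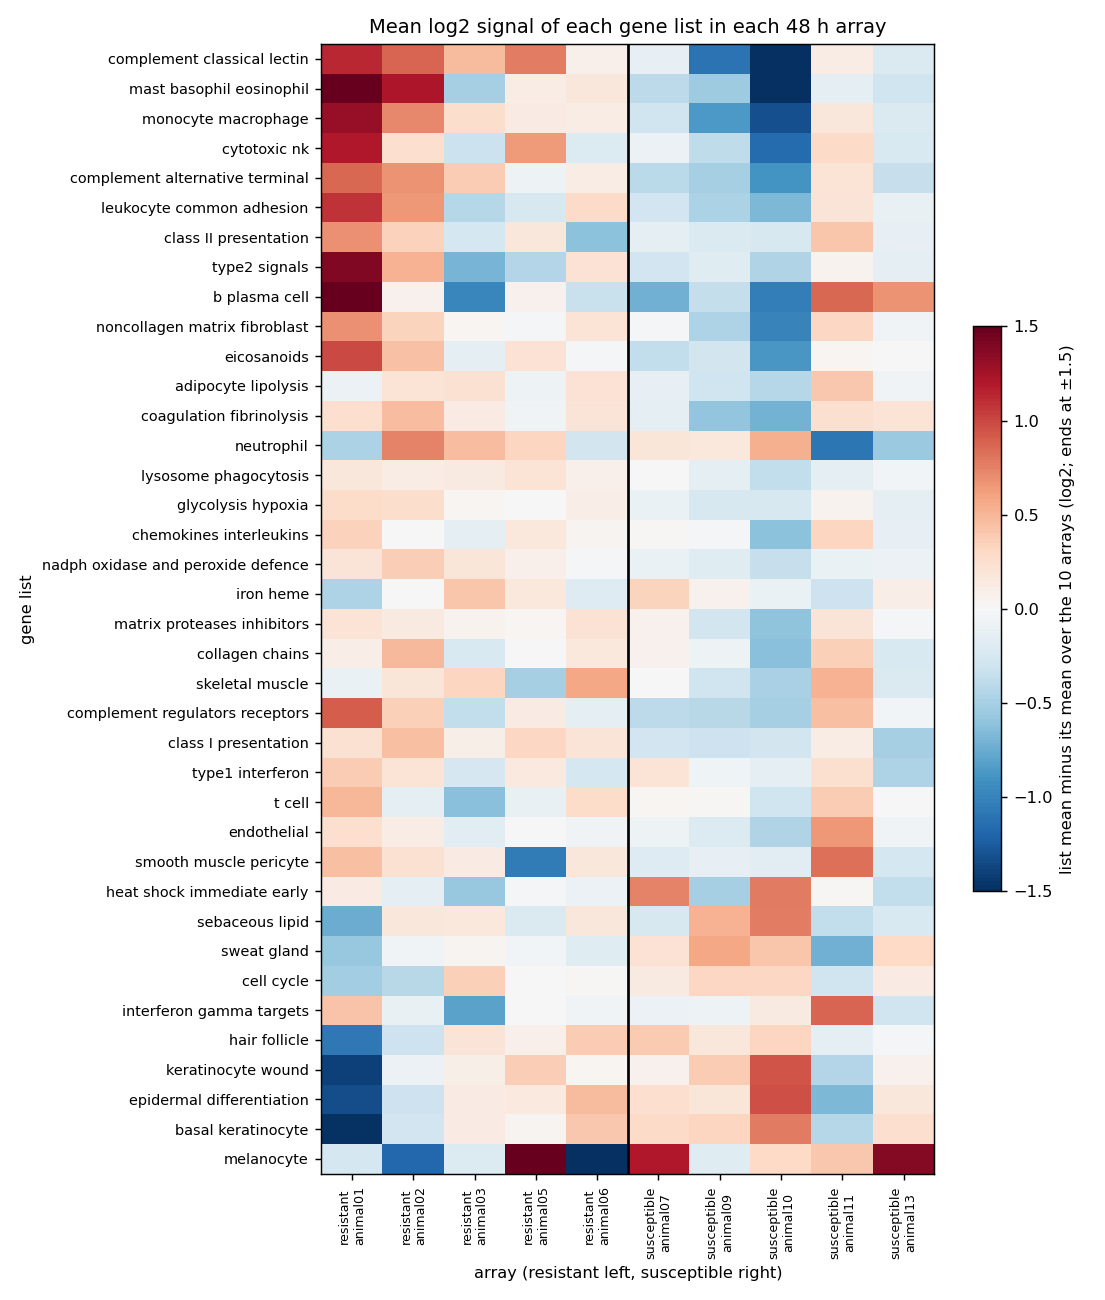
The mean log2 signal of each gene list (rows) is shown for each array at 48 h (columns, resistant left of the line) as the distance from the mean of that list over the 10 arrays. In the macrophage list resistant animal 1 is highest at 10.12 and susceptible animal 10 lowest at 7.50. In the epidermal differentiation list they are lowest at 9.02 and highest at 11.32. In the neutrophil list they are at 8.39 and 9.40, in the opposite order to the macrophage list.

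Other skin structures differed little. Of 23 kept lipid synthesis genes of the sebaceous gland 1 was higher, ELOVL5, and 1 lower, SCD, the desaturase that makes monounsaturated fatty acids, at 12.52 in resistant skin and 13.37 in susceptible skin. PNPLA2, the lipase that starts fat breakdown, was the lower gene of 11 kept adipocyte genes (-0.99). Of 7 kept sweat gland genes ATP1B1, a chain of the sodium pump, was lower by 0.51 on the log2 scale, and 0 of 6 hair follicle genes passed. Of 23 kept endothelial genes 2 were higher: LYVE1, a hyaluronan receptor of lymphatic vessels and macrophages (1.24), and CD34 (0.62). In smooth muscle 0 of 16 kept genes passed, and in skeletal muscle 0 of 6. LYVE1 differed by 0.68 without susceptible animal 10, and a second LYVE1 probe set by 0.76. The endothelial count was 0 without resistant animal 1 or 6 or susceptible animal 9 or 10 and 1 without resistant animal 2 or susceptible animal 7. The sweat gland gene did not pass without susceptible animal 10, and the higher sebaceous gene did not without resistant animal 1 or 2; without susceptible animal 11 the counts were 2 lower in the sweat gland and 2 higher and 4 lower in the sebaceous list.

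Pigment genes spread widely between animals. TYRP1, an enzyme of melanin synthesis, measured 9.56, 4.20, 7.0, 11.84 and 1.09 log2 units in resistant skin, against 12.32, 7.34, 9.72, 10.61 and 12.60 in susceptible skin. The difference of -3.78 ± 1.97 (SE) did not pass an unadjusted p of 0.05, nor did TYR, tyrosinase (-2.31), or PMEL, the melanosome fibril protein (-1.90). Without resistant animal 6 these differences were -2.37 for TYRP1, -0.98 for TYR and -1.01 for PMEL. Coat colour was not given in the sources used here.

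Of 28 kept genes of the cell cycle list 3 were lower and 0 higher, with a median of -0.24 and 25 genes below 0. MCM7, a subunit of the replication helicase, differed by -0.28. The other genes that passed, the kinesin KIF21A (-0.73, and -0.54 in a second probe set) and the histone chaperone ANP32E (-0.41), are not mitotic markers and were put on the list with earlier results known. The count of lower genes was 7 without resistant animal 3 and 8 without susceptible animal 11. It was 2 without resistant animal 1 or 2 and with array weights.

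Among the genes with the smallest p that were lower in resistant skin, POLR2D came first by its p. POLR2D, a subunit of RNA polymerase II, measured 9.07, 8.87, 9.06, 9.03 and 9.69 log2 units in resistant skin, against 9.89, 10.07, 10.19, 9.58 and 9.59 in susceptible skin (difference -0.72 ± 0.16 SE; limma, adjusted p = 0.114). A second POLR2D probe set differed by 0.01. Resistant animal 6 alone lay in the susceptible range.

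The next genes were LRCH4 at -0.62, GPN3, a GTPase needed to import RNA polymerase II, at -0.50, and CNEP1R1, a regulator of a nuclear envelope phosphatase, at -0.51. The groups did not overlap in LRCH4 and in this GPN3 probe set and overlapped in CNEP1R1. CDH23, an adhesion protein, differed by -0.55, GTF3C2, a subunit of a transcription factor for RNA polymerase III, by -0.46, and the spliceosome protein SF3B4 by -0.43. Ezrin, EZR, which links actin to the membrane, differed by -0.44, B4GAT1, a glycosyltransferase, by -0.44, and CAMSAP1, which binds microtubule ends, by -0.51. AAMP followed at -0.70, SMARCA4, the ATPase of a chromatin remodeller, at -0.56, ISM1, a secreted protein, at -1.12, ATAD1, a mitochondrial ATPase, at -0.38, and LMO7, an adaptor of cell junctions, at -0.73. A second ATAD1 probe set gave 0.03, and second probe sets of GPN3, SMARCA4 and CAMSAP1 gave -0.17, -0.20 and -0.32. In ISM1 resistant animal 1, at 7.96, lay well below the other resistant arrays (9.60 to 10.08).

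The comparison of phenotypes at the other times gave fewer differences. At 24 h 0 probe sets passed the adjusted threshold of limma and 608 (4.4%) had an unadjusted p under 0.05; before infestation 0 passed and 623 (4.51%) had. The change in the phenotype difference between 24 h and 48 h was tested directly: 0 probe sets passed after adjustment, and 724 (5.24%) did before it. Between 0 h and 48 h, 0 passed after adjustment and 405 (2.93%) before it. None of the 48 h differences is therefore shown to differ from those at the earlier times at the adjusted threshold. Many of the animals were sampled at more than 1 time, and both tests use the same 48 h arrays.

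By time, CYBA differed between phenotypes by 0.25 at 0 h, 0.36 at 24 h and 1.07 at 48 h. In resistant skin its means were 10.30, 10.10 and 10.86 log2 units at 0 h, 24 h and 48 h, and in susceptible skin 10.04, 9.74 and 9.80. C1QA differed by 0.25, -0.01 and 1.81, CFP by -0.07, -0.01 and 1.28 and AIF1 by 0.06, 0.09 and 1.1. For C1QA the resistant mean was 11.06, 10.70 and 11.98 and the susceptible mean 10.81, 10.70 and 10.17, so at 48 h the resistant mean was above and the susceptible mean below its own value at 24 h; change over time within a phenotype was not tested. MMP19 differed by -0.38, 0.18 and 1.13.

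In some genes the estimated difference had another sign at 48 h than at an earlier time. No probe set passed the adjusted threshold in the direct tests of such a change. KIF21A differed by 0.23 at 0 h, 0.25 at 24 h and -0.73 at 48 h, with a resistant mean of 9.11 at 48 h against 10.06 at 24 h and little movement in susceptible skin (9.84 and 9.81). COL17A1 differed by -0.68, 0.69 and -0.92. ANP32E differed by 0.26, 0.32 and -0.41. PIGN, an enzyme of glycolipid anchor synthesis that was singled out after its values were seen, was lower in resistant skin at each time, by -0.97 at 0 h, -0.63 at 24 h and -0.81 at 48 h.

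**Figure D5:**
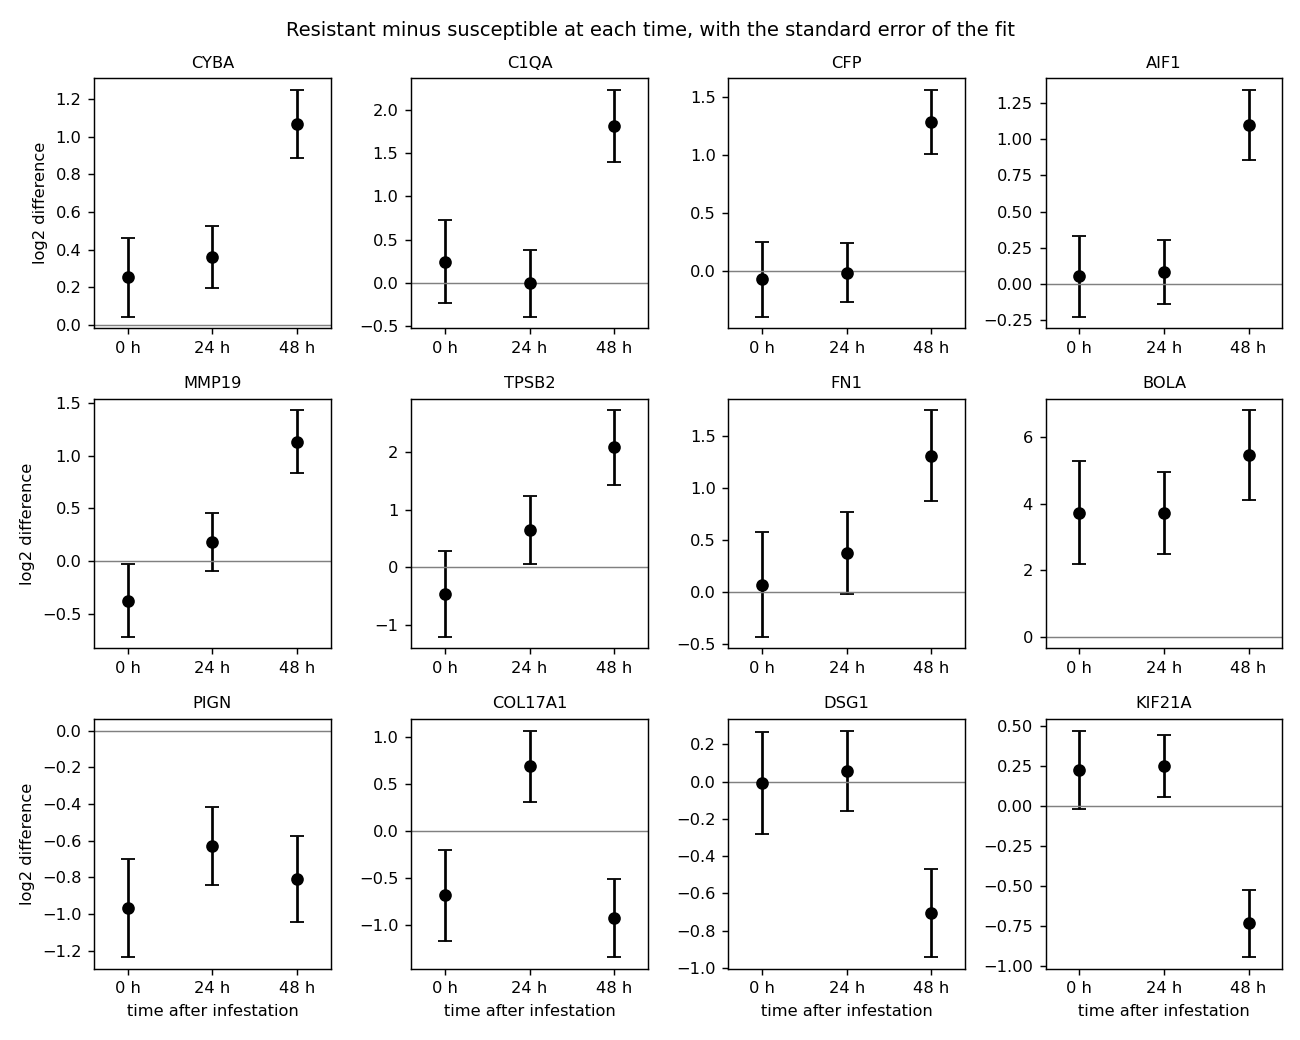
The log2 difference, resistant minus susceptible, is plotted at 0 h, 24 h and 48 h for 12 genes (y axes, each on its own scale), with the standard error of the limma fit as the bar. CYBA, C1QA, CFP, AIF1, MMP19, TPSB2 and FN1 have their highest value at 48 h, BOLA is above 3 and PIGN below -0.6 at every time, and DSG1 and KIF21A are lowest at 48 h.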

How the data were processed

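The authors deposited log2 signals, which the submitters' processing notes credit to MAS5 of unstated version. On the linear scale the 2% trimmed mean was 500 in every array. The log2 values were used as deposited, without detection calls, and the number of arrays limits precision. The array holds 24128 probe sets, 112 of them controls. Among the remaining 24016, those at or above their array's median in at least 3 of 30 arrays were kept (13809). Symbols came from the supplied annotation: 13292 probe sets had 1, 86 several and 10638 none. A gene was read from its kept probe set with the highest mean; other probe sets are given where they differ in direction or in passing an unadjusted p of 0.05, except for COL17A1 and HPGD, whose second probe sets differed by -0.71 and 0.52 without passing, and for PRL (0.42) and TFPI (1.53). No coordinates or sequences are shown, since the build behind the annotation is unstated.

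A linear model of 6 phenotype and time groups covered the 30 arrays (limma 3.58.1, R 4.3.3), with moderated variances that follow signal level. Tests were two-sided, with Benjamini-Hochberg adjustment over the kept probe sets and a threshold of 0.05; standard errors (SE) are the fit's. In simulated 48 h data of 13809 probe sets the fit found 66 of the 100 with a true difference of 1 log2 unit. It found 92 of the 100 with 2 and 8 that had none, and with no true difference at all it called 0. The simulated noise was independent between probe sets and had the same spread in every array. These counts are therefore not error rates of the real comparison.

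Named genes are the probe sets past the threshold, the 15 genes higher and 15 lower with the smallest p, in each list up to 4 genes with the smallest p and those without overlap, and abundant markers of other cell types, not all of which are printed. MSR1, VSIG4, CD14, CSF1R, CYBB, RAC2, RNASE6, TLR2, PTI, LOC404103, KIT, BOLA-DRA, ISG15, FN1, VIM, DCN, OGN, COL1A1, F5, EGLN3, KRT5, KRT14, PIGN and FCN1 were chosen after their values were seen. The members and the 39 lists were chosen with earlier results of these data known, so lists carry no test of their own. Animal numbers come from the titles and mark the same animal at several times: arrays of 1 animal at 24 h and 48 h had a median correlation of their deviations of 0.25 over 9 pairs, against -0.06 over 51 pairs of different animals. Alternatives were array weights, quantile normalization, median centring, no filter, no trend, an offset of 16, the 10 arrays alone, the animal as a replicate block, leaving out each array, and covariates (XIST, control 3′ to 5′ difference, basal and epidermal means). Figures used matplotlib 3.10.9 in Python 3.11.15.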

Additional observations from a re-analysis of the deposited data

Results flagged for a closer look

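Of 332 groups of 5 arrays at 48 h, each a gene or a list mean named in the text, 20 held an array that lay far from the other 4 by Dixon's criterion. Chance flags about 1 in 20 groups. Susceptible animal 11 stood apart in BOLA, at 12.85 against 5.10 to 7.31 in the other susceptible arrays, and in BOLA-DRA, at 11.95 against 11.07 to 11.31. It was also apart in the class II list mean, at 9.01 against 8.36 to 8.47, in the smooth muscle list, at 11.44 against 10.35 to 10.48, and in the sweat gland list, at 9.32 against 10.26 to 10.62. Susceptible animal 10 stood apart in TPSB2, at 2.37 against 5.81 to 6.83, in COL1A1, at 10.18 against 12.39 to 13.03, and in BOLA-DQB, at 8.73 against 6.13 to 6.54.

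Resistant animal 1 was low in KRT5, at 12.15 against 14.05 to 14.58 in the other resistant arrays, in ISM1, at 7.96 against 9.60 to 10.08, and in the wound keratinocyte list, at 9.25 against 10.57 to 11.02. Resistant animal 6 was low in LOC504773, at 10.84 against 12.81 to 13.33, and in TYR, at 0.91 against 6.94 to 8.83, and high in POLR2D, at 9.69 against 8.87 to 9.07. Resistant animal 3 was low in CCL26, at 12.40 against 13.81 to 14.35, and resistant animal 5 in the smooth muscle list, at 9.56 against 10.73 to 11.06.

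Of the other susceptible arrays, animal 7 was low in PIGN, at 7.87 against 8.86 to 9.20, and in the blood cell list of 1 gene, at 6.07 against 7.06 to 7.36. Animal 9 was high in KIT, at 11.12 against 10.26 to 10.46, and animal 13 was low in CAMSAP1, at 10.06 against 10.34 to 10.44.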

How the results depend on the processing

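The number of probe sets called at 48 h was 0 with array weights, with the basal keratinocyte mean as a covariate, with the 10 arrays alone, and, in an alternative chosen after seeing the data, without resistant animal 1 and susceptible animal 11. It was 1 with XIST and 1 with the control 3′ to 5′ difference as a covariate, 4 with no filter, 8 with the epidermal mean as a covariate and 10 after median centring. Leaving out 1 array at a time gave 0 to 14 calls: 0 without resistant animal 1, 2, 3 or 5 or susceptible animal 10, 9 without resistant animal 6 and 14 without susceptible animal 11; the cause was not tested. CYBA stayed higher, and lost its call with array weights (0.96, adjusted p = 0.0897), the basal mean (0.93, 0.0758), the 10 arrays alone (1.07, 0.245) and without both animals (1.01, 0.0729); leaving out 1 array gave 0.93 to 1.14, with adjusted p from 0.0222 to 0.215. With the animal as a replicate block (correlation 0.14) CYBA differed by 1.08 with an adjusted p of 0.0247, and 2 probe sets were called; without the 0 h arrays of resistant animals 3 and 5, also chosen after seeing the data, these were 1.08, 0.0262 and 2. The tests of 48 h against 24 h and 0 h called 0 in every alternative run. Of the genes named, 3 changed direction: KIT was -0.097 with the basal and -0.038 with the epidermal mean, and with the basal mean, which they enter, KRT5 was 0.014 and KRT14 0.265. The medians of the 39 lists kept their sign under quantile normalization and median centring, and 8 changed it with the basal mean and 3 with the epidermal mean as a covariate. Values under the array median, as for FCN1, BOLA-DQB, and FCER1A and TPSB2 in susceptible and part of resistant skin, carry no detection call here. Among others this also holds for C1QC and CFP in susceptible animals 9 and 10. It holds as well for MMP19 in susceptible animals 10 and 13 and for TFPI in susceptible animals 7, 9 and 10.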

Other observations

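Several gene lists whose counts are not given above had few or no genes at an unadjusted p under 0.05 at 48 h in limma. Some of their genes and list means are given above. Heat shock and immediate early genes had a median difference of -0.17 log2 units, and 23 of 25 kept genes were below 0, but 0 passed; leaving out 1 array gave medians from -0.33 to -0.06. Iron and heme genes had a median of 0.22, and 1 of 11 kept genes was higher; that count was 0 without resistant animal 1, 3 or 5 or susceptible animal 9, 10 or 13, 2 without susceptible animal 7 and 3 without susceptible animal 11, and the median ran from 0.04 to 0.27 when 1 array was left out. Wound keratins and other genes of activated keratinocytes had a median of -0.37, and 0 of 8 kept genes passed; the median was 0.02 without resistant animal 1 and -0.61 without resistant animal 5. Of B cell and plasma cell genes 3 of 18 were kept and 0 passed, with a median of 0.51, or 0.09 without susceptible animal 10. Of 12 blood cell genes 1 was kept, with a difference of 0.15, which ran from -0.17 to 0.59 when 1 array was left out.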
